A study of Mus musculus with 16 samples.

Results

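The dual-specificity MAP kinase phosphatases were followed across sleep disruption (SD) and genotype in mouse somatosensory cortex. The 9 genes Dusp1, Dusp2, Dusp4, Dusp5, Dusp6, Dusp7, Dusp8, Dusp10 and Dusp16 were taken by symbol from the 24421 genes listed, and all 9 were found and tested in every comparison. The samples allow SD to be compared with undisturbed sleep, and mice lacking AcPb, the neuron-specific form of the interleukin-1 receptor accessory protein, with wild-type mice. Wild-type C57BL/6 mice and AcPb-/- mice, labelled as males of 2 to 3 months bred for 5 to 7 generations at the study's institution, were either left undisturbed (CTL-WT and CTL-AcPbKO) or kept awake by gentle handling from ZT20 to ZT4, an 8 h period (SD-WT and SD-AcPbKO). All mice were euthanized at ZT4, counted in hours after lights on. Of 16 labelled samples, 12 had values, 3 per group, and the other 4 were not analysed here.

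Dual-specificity phosphatases of this class remove phosphate from both the threonine and the tyrosine of the activation loop of MAP kinases and so switch off ERK, JNK or p38. Many of the genes are themselves transcribed when the kinases are active, which makes them a negative feedback loop and a common readout of recent MAP kinase signaling in neurons. DUSP1, DUSP2, DUSP4 and DUSP5 are inducible nuclear enzymes, DUSP6 and DUSP7 are cytoplasmic enzymes that prefer ERK, and DUSP8, DUSP10 and DUSP16 prefer JNK and p38.

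The libraries held 26504840 to 41615582 reads on genes in the controls and 58770286 to 71857505 after SD. Every SD library was deeper than every control, so depth and SD cannot be told apart. Despite the male labels, 4 of the 6 control libraries (CTL-WT 02 and 03, CTL-AcPbKO 04 and 05) held 42880 to 46055 normalized counts of Xist, the RNA of the inactive X chromosome, and a summed 0 to 3.53 over 4 Y-linked genes. The other 8 libraries, among them all 6 SD libraries, held 3.55 to 16.5 of Xist and 6452 to 7845 over the Y-linked genes. By these sex-linked genes, the 4 libraries do not match their male labels. As all 4 were controls, every SD comparison over all libraries was also unbalanced in this pattern. Results on the phosphatases are therefore given with and without these 4 libraries, called below the libraries with Xist reads. Without them each genotype kept 1 control, CTL-WT 01 or CTL-AcPbKO 03, so in those 8 libraries the SD libraries alone supplied the spread behind every SE, interval and p, and the lone controls were assumed to vary as they did. The markers of cortical excitatory neurons summed to 76656 to 103340 in every library, a sum that does not show shifts of single markers. With SD 2 of these 7 markers rose and 2 fell in wild-type mice, and 2 rose and 1 fell in AcPb-/- mice. Of all genes 13.2% rose and 12.2% fell in wild-type mice, and 14.1% and 13.3% in AcPb-/- mice. The 4 red blood cell markers were listed at 0 throughout. The choroid plexus markers summed to 17562 in SD-AcPbKO 04 against 219 to 492 in the other 11 libraries. The transcript of Il1rap, counted over all its isoforms, lay at 1476 to 1520 in CTL-WT and 1515 to 1647 in CTL-AcPbKO, a count that cannot check the loss of a single isoform.

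Levels between genes were compared as normalized counts per kilobase of annotated exon, averaged over the 12 libraries. Dusp8 had the highest level at 1819 per kilobase, followed by Dusp6 at 1451 and Dusp7 at 1242. Dusp1 lay at 562.5 per kilobase, Dusp4 at 214.1, Dusp5 at 139.6, Dusp10 at 116.7, Dusp16 at 100.8 and Dusp2 at 25.6. The library ranges of neighbours in this order overlapped, except between Dusp7 and Dusp1 and between Dusp16 and Dusp2. The coefficient of variation over the libraries was 37.7% for Dusp4, 34.1% for Dusp5 and 31.0% for Dusp1, against 7.41% for Dusp7 and 9.42% for Dusp16. The abundant members thus included both the steadiest gene and, in Dusp6 at 25.4%, a variable gene. Dusp2 rested on 33 to 84 reads in a library, and its values carry the largest counting error of the family.

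**Figure D1:**
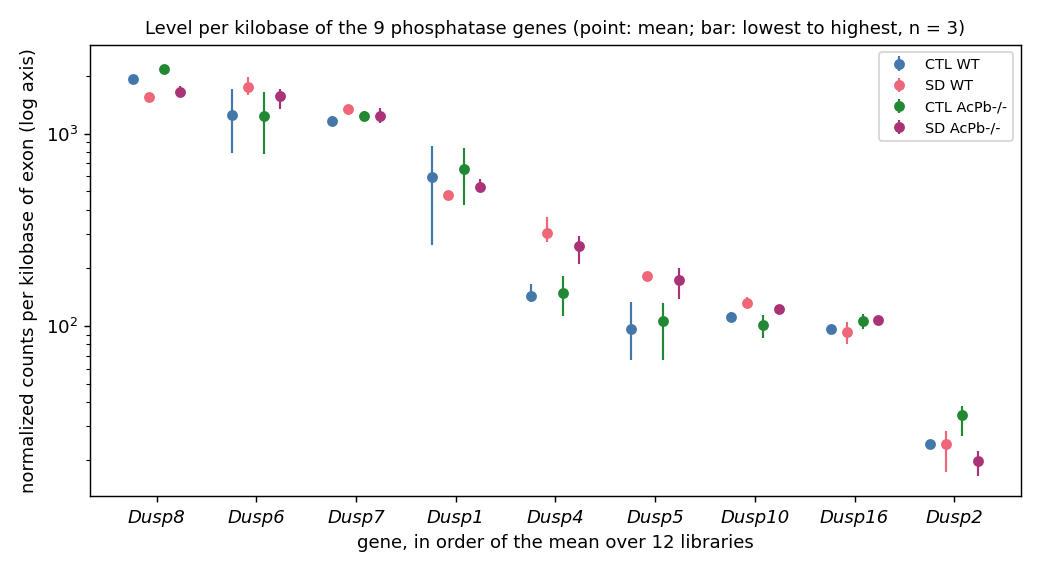
Level of each phosphatase gene in normalized counts per kilobase of exon (log axis), with the genes on the horizontal axis in order of their mean over 12 libraries. Points are group means and bars run from the lowest to the highest of 3 libraries. Dusp8 led at 1819 per kilobase and Dusp2 was lowest at 25.6, and the controls spread most for Dusp1, Dusp5 and Dusp6.

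Dusp1 encodes an inducible nuclear phosphatase of p38, JNK and ERK. It lies on the minus strand of chr17:26505590-26562128 (GRCm38), and 11 exonic bases overlap Ergic1 on the opposite strand. In CTL-WT it was measured at 869.6, 2183 and 2868 normalized counts and in SD-WT at 1525, 1656 and 1551. In CTL-AcPbKO it was measured at 1406, 2301 and 2769 and in SD-AcPbKO at 1917, 1646 and 1660. The SD libraries sat close together, inside the wide range of the controls, whose highest value was 3.3 times the lowest, and the 4 high controls were the 4 libraries with Xist reads. With all libraries the log2 fold change of SD over undisturbed was -0.16 ± 0.33 (SE; limma adjusted p = 0.759) in wild-type and -0.26 ± 0.21 (adjusted p = 0.419) in AcPb-/- mice. Without the libraries with Xist reads the sign turned. Averaged over both genotypes in the remaining 8 libraries, the log2 fold change was 0.58 ± 0.07 (adjusted p = 0.00792), with a 95% confidence interval of 1.32-fold to 1.70-fold. That estimate rests on 1 control per genotype, with its error taken from the SD libraries, while Dusp1 spread 3.3-fold over the 6 controls and 1.26-fold over the 6 SD libraries. By genotype the value was 0.86 in wild-type and 0.31 in AcPb-/- mice. Leaving out CTL-WT 01 instead gave a fall of the wild-type value to -0.67 (adjusted p = 0.00456), and leaving out CTL-AcPbKO 03 gave -0.54 (adjusted p = 0.00742) in AcPb-/- mice, so the direction of the SD difference in Dusp1 was set by which controls were kept. In bulk tissue, fewer cells of a type and less RNA per cell cannot be told apart, here or for any other member.

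Dusp2, an inducible nuclear phosphatase best known from immune cells, was the scarcest member. It lies on the plus strand of chr2:127336159-127338376. Its normalized counts were 49.4, 46.5 and 50.3 in CTL-WT and 56.6, 34.9 and 54.1 in SD-WT. They were 53.5, 75.9 and 76.4 in CTL-AcPbKO and 33.3, 40.6 and 44.7 in SD-AcPbKO. The wild-type groups overlapped and the AcPb-/- groups did not. In wild-type mice the log2 fold change was -0.04 ± 0.23 (adjusted p = 0.921). In AcPb-/- mice Dusp2 fell by 0.77 ± 0.23 on the log2 scale (adjusted p = 0.0375), and this call was lost when any of CTL-AcPbKO 04 or 05 or any SD-AcPbKO library was left out (adjusted p from 0.0618 to 0.125). With the libraries with Xist reads left out, the value was -0.06 in wild-type and -0.44 in AcPb-/- mice, and -0.25 ± 0.24 averaged over genotypes (adjusted p = 0.489).

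Dusp4, an inducible nuclear phosphatase of ERK and JNK, gave the largest SD difference that passed in both genotypes. It lies on the plus strand of chr8:34807297-34819894. Counts were 367, 365 and 450.4 normalized counts in CTL-WT and 745, 753 and 1013 in SD-WT. The AcPb-/- controls lay at 309, 417 and 495 and the SD-AcPbKO libraries at 750.3, 576 and 800.2. Every SD library was above every control in both genotypes. Dusp4 was upregulated 2.11-fold in wild-type mice (interval 1.72 to 2.59, log2 fold change 1.08 ± 0.13, adjusted p = 0.000715) and 1.76-fold in AcPb-/- mice (interval 1.32 to 2.35, log2 fold change 0.81 ± 0.18, adjusted p = 0.0122). In the 8 libraries without Xist reads the log2 fold change averaged over genotypes was 1.18 ± 0.18 (adjusted p = 0.0108), and by genotype, against 1 control each, 1.17 and 1.18. The AcPb-/- call was lost without SD-AcPbKO 02 (0.76, adjusted p = 0.0656) and without SD-AcPbKO 04 (0.72, adjusted p = 0.0506), the library with the high choroid plexus markers. In all, it was lost in 7 of 20 alternative settings. These include no filter on low values, no variance trend and a threshold of 0.01. The wild-type call was lost in 3 of 20. Among them were the fit of the wild-type libraries alone without those with Xist reads, and the replicate block.

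Dusp5, an inducible nuclear phosphatase specific for ERK, followed Dusp4. It lies on the plus strand of chr19:53529109-53542431, and 22.1% of its exon length is also covered by the antisense gene AC137853.2, whose reads cannot be told apart here because the strand setting of the counting is not known. CTL-WT held 165, 218 and 329 normalized counts and SD-WT 437, 469.7 and 448. The AcPb-/- controls lay at 164, 297 and 327 and the SD-AcPbKO libraries at 492, 339.6 and 455. No SD library overlapped the controls of its genotype, and the lowest control of each genotype was the library without Xist reads. Dusp5 was upregulated 1.98-fold in wild-type mice (interval 1.45 to 2.70, log2 fold change 0.98 ± 0.20, adjusted p = 0.00666). In AcPb-/- mice the log2 fold change was 0.75 ± 0.25 (adjusted p = 0.0569), and the same comparison passed on whole reads with DESeq2 (adjusted p = 0.00836) and edgeR (adjusted p = 0.0396). In the 8 libraries without Xist reads the log2 fold change of Dusp5 averaged over genotypes was 1.41 ± 0.15 (adjusted p = 0.00655), a 2.65-fold difference from 1 control per genotype, with the error taken from the SD libraries.

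**Figure D2:**
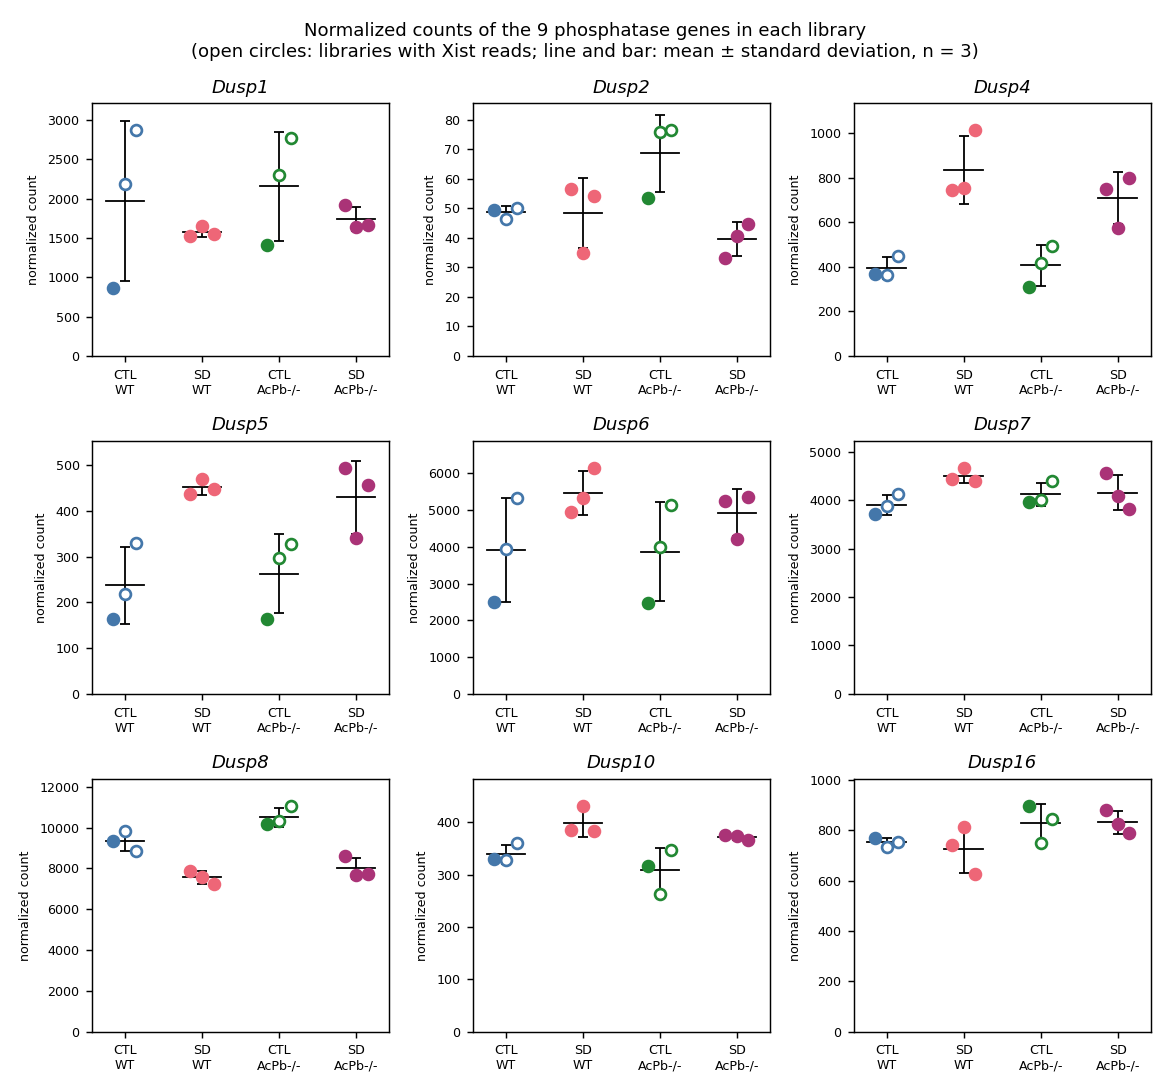
Normalized counts (vertical axis, from 0) of each phosphatase gene in the 12 libraries, by group on the horizontal axis. Each circle is a library, open circles are the 4 control libraries with Xist reads, and lines with bars are means ± standard deviation of 3 libraries. Every SD library lay above the controls of its genotype for Dusp4, Dusp5 and Dusp10 and below them for Dusp8, and the open circles were the highest controls for Dusp1, Dusp5 and Dusp6.

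Dusp6, the cytoplasmic ERK phosphatase and a classical feedback target of ERK, was the second most abundant member. It lies on the plus strand of chr10:99263231-99267489. Its normalized counts were 2495, 3933 and 5325 in CTL-WT and 4950.0, 5316 and 6134 in SD-WT. They were 2460.4, 4003 and 5140.4 in CTL-AcPbKO and 5241.5, 4199 and 5343.5 in SD-AcPbKO. The groups overlapped in both genotypes, and the library without Xist reads was the lowest control of each. With all libraries the log2 fold change was 0.54 ± 0.21 (adjusted p = 0.0889) in wild-type and 0.41 ± 0.23 (adjusted p = 0.232) in AcPb-/- mice. Without the libraries with Xist reads the log2 fold change averaged over genotypes was 1.06 ± 0.12 (adjusted p = 0.00701), a 2.09-fold difference (interval 1.69 to 2.57). By genotype it was 1.13 in wild-type and 0.997 in AcPb-/- mice, each against 1 control. The error again comes from the SD libraries, over which Dusp6 spread 1.46-fold against 2.16-fold over the 6 controls.

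Dusp7, the other cytoplasmic ERK phosphatase of the set, lies on the plus strand of chr9:106368632-106375724 and had the smallest variation over the libraries. CTL-WT held 3706, 3886 and 4122 normalized counts and SD-WT 4429, 4656 and 4402.5. The AcPb-/- controls lay at 3965, 3999 and 4390.5 and the SD-AcPbKO libraries at 4555, 4090.5 and 3823. The wild-type groups did not overlap and the AcPb-/- groups did. Dusp7 was upregulated 1.15-fold in wild-type mice (interval 1.05 to 1.26, log2 fold change 0.20 ± 0.06, adjusted p = 0.0336), a call lost when CTL-WT 01, CTL-WT 02, SD-WT 01 or SD-WT 02 was left out (adjusted p from 0.0864 to 0.133). In AcPb-/- mice the log2 fold change was 0.01 ± 0.08 (adjusted p = 0.908), and the difference between genotypes was -0.19 (interval -0.40 to 0.02). In the 8 libraries without Xist reads the value averaged over genotypes was 0.17 ± 0.07 (adjusted p = 0.128), with 0.28 in wild-type and 0.07 in AcPb-/- mice.

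Dusp8, a brain-enriched phosphatase of JNK and p38, was the most abundant member and the one that fell in both genotypes. It lies on the minus strand of chr7:142079490-142095843, and 66 exonic bases (1.36%) overlap Gm32786 on the opposite strand. Its level was 9332, 9813 and 8857 normalized counts in CTL-WT and 7883, 7598 and 7249 in SD-WT. The AcPb-/- controls lay at 10169, 10336 and 11046 and the SD-AcPbKO libraries at 8605, 7682.5 and 7747. Every SD library was below every control. Dusp8 was downregulated to 0.812 of the undisturbed level in wild-type mice (interval 0.738 to 0.892, log2 fold change -0.30 ± 0.06, adjusted p = 0.00655) and to 0.763 in AcPb-/- mice (interval 0.687 to 0.847, log2 fold change -0.39 ± 0.07, adjusted p = 0.00377). The value without the libraries with Xist reads was -0.32 averaged over genotypes, and -0.30 and -0.34 by genotype against 1 control each. With all libraries, leaving out any library in turn kept both calls. Over all alternative settings the call was lost in 4 of 20 in wild-type and 3 of 20 in AcPb-/- mice. These include the fits by genotype without the libraries with Xist reads and, in wild-type mice, the fit without the variance trend.

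Dusp10, a JNK and p38 phosphatase, lies on the plus strand of chr1:184013302-184075636. Its level was 329, 328 and 359.9 normalized counts in CTL-WT and 385, 431 and 384 in SD-WT. The AcPb-/- controls lay at 317, 263 and 347 and the SD-AcPbKO libraries at 376, 374 and 366. The groups did not overlap in either genotype. Neither comparison passed within a genotype, with log2 fold changes of 0.24 ± 0.10 (adjusted p = 0.105) and 0.28 ± 0.12 (adjusted p = 0.117). Averaged over genotypes in all 12 libraries, Dusp10 was upregulated by 0.26 ± 0.07 (adjusted p = 0.0132). In the 8 libraries without Xist reads the same size was found at an adjusted p of 0.0460, and this call was lost without any of 5 of the 6 SD libraries and by DESeq2 and edgeR.

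Dusp16, which also acts on JNK and p38, lies on the minus strand of chr6:134715468-134792625. Counts were 769.6, 734 and 755 normalized counts in CTL-WT and 742, 813 and 626 in SD-WT. The AcPb-/- controls lay at 896, 749 and 846 and the SD-AcPbKO libraries at 881, 827 and 789. Both pairs of groups overlapped. The log2 fold change was -0.06 (interval -0.28 to 0.16) in wild-type and 0.01 (interval -0.19 to 0.21) in AcPb-/- mice. In the 8 libraries without Xist reads it was -0.10 ± 0.11 averaged over genotypes (adjusted p = 0.541).

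The promoters of 3 members are shown because they belong to genes with different patterns above, Dusp1 with its split controls, Dusp5 upregulated and Dusp8 downregulated. Each covers 250 bases before to 50 after the RefSeq gene start (GRCm38.p6), and capitals mark the motifs found on either strand, the cyclic AMP response element TGACGTCA, its core TGACG, the E-box CACGTG and the CArG box bound by serum response factor.
Dusp1, chr17:26508423-26508722, minus strand: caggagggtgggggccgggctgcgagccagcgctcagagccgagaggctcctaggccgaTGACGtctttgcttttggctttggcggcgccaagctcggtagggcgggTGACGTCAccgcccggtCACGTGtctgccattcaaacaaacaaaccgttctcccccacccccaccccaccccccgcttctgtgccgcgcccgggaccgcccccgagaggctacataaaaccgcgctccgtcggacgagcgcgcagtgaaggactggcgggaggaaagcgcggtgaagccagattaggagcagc
Dusp5, chr19:53528895-53529194, plus strand: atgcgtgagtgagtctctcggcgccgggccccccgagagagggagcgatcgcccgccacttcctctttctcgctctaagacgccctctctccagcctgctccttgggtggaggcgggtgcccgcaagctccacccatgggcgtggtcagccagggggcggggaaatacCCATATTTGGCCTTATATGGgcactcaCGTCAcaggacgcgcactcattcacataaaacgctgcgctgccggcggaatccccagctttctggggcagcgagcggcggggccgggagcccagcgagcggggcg
Dusp8, chr7:142095235-142095534, minus strand: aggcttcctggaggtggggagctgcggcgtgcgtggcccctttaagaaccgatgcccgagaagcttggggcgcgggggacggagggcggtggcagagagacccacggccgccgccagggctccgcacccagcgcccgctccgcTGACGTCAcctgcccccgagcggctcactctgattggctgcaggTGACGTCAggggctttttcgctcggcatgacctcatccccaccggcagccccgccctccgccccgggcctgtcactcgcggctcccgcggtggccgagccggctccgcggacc
The gene spans given above come from GENCODE, and for the 3 genes shown their starts differ from the RefSeq starts used here. The Dusp1 window lies inside its GENCODE span, far from the end at which a minus-strand gene starts. The Dusp10 window, chr1:184034131-184034430, also lies inside its GENCODE span, which starts at 184013302 on the plus strand. The Dusp1 promoter held TGACGTCA at 143 to 136 bases before the start and CACGTG at 126 to 121. The Dusp8 promoter held TGACGTCA at 2 places, 107 to 100 and 63 to 56 bases before the start, so the element occurred in a gene that fell as well as in Dusp1. The full element was present in 1.79% of 32851 promoters of this length, TGACG (which lies inside it) in 20.8% and CACGTG in 7.15%. The Dusp5 promoter held adjoining CArG boxes at 82 to 73 and 72 to 63 bases before the start, and 1.63% of promoters held at least 1. TGACG also occurred in Dusp2 and Dusp16 and CACGTG in Dusp2. None of these letters occurred in the windows of Dusp6, Dusp7 or Dusp10, and the AP-1 letters TGANTCA (7.81% of promoters) and the EGR letters GCGTGGGCG (0.612%) occurred in none of the 8 members with an entry.

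Counted over the family with all libraries, 3 of 9 members were upregulated in wild-type mice, against 13.2% of 20417 genes, and 1 was downregulated, against 12.2%. In AcPb-/- mice 1 member was upregulated, against 14.1% of 20574 genes, and 2 were downregulated, against 13.3%. The groups did not overlap for 5 of 9 members in each genotype, where 40.2% of genes in wild-type and 42.3% in AcPb-/- mice did not overlap. Counts over 9 genes are a description and do not set the family apart from other genes. Averaged over genotypes in 12 libraries, Dusp4, Dusp5 and Dusp10 rose against 21.2% of 20978 genes, and Dusp8 fell against 20.3%. In the 8 libraries without Xist reads 5 members passed upward (Dusp1, Dusp4, Dusp5, Dusp6 and Dusp10), against 13.4% of 20768 genes, and Dusp8 passed downward, against 11.3%, in a fit with 1 control per genotype in which the spread of controls does not enter. The median log2 fold change over the 9 members was 0.20 in wild-type mice, 0.01 in AcPb-/- mice and 0.26 in the 8 libraries, beside -0.0039, 0.014 and 0.0082 over all genes tested.

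**Figure D3:**
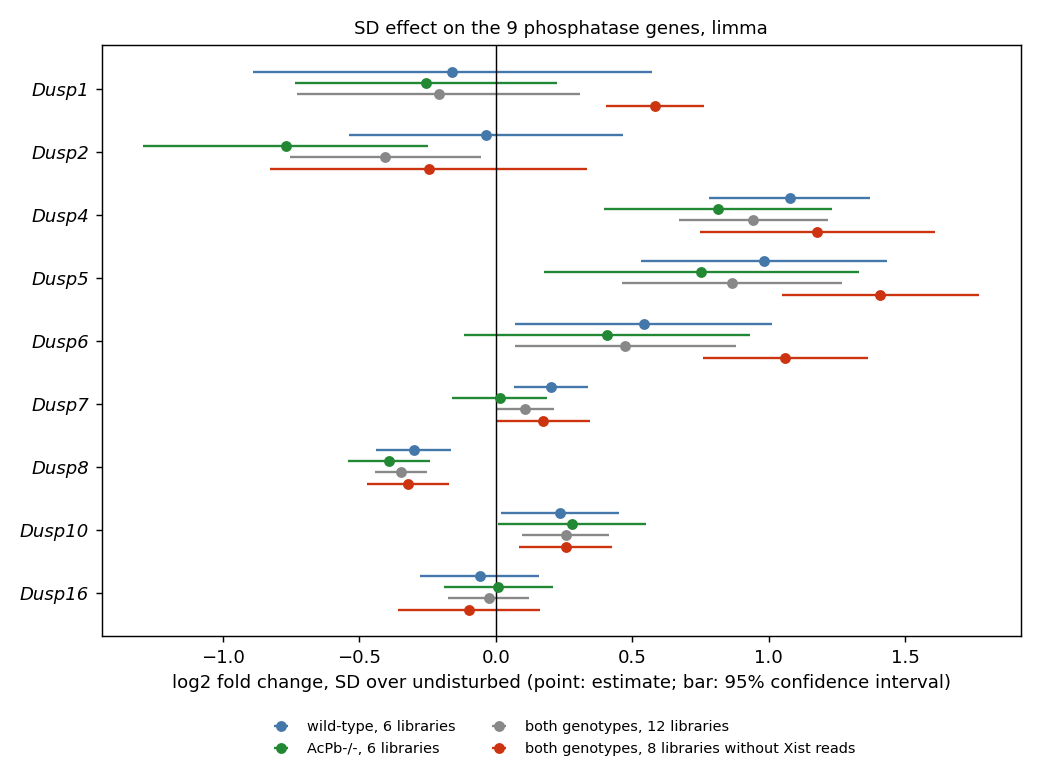
Log2 fold change of SD over undisturbed (horizontal axis) for each phosphatase gene, estimated by limma in wild-type mice, in AcPb-/- mice and averaged over both with all 12 libraries or with the 8 without Xist reads. Points are estimates and bars 95% confidence intervals. The intervals of Dusp4, Dusp5 and Dusp10 lay above 0 and those of Dusp8 below 0 in all 4 estimates, while Dusp1 moved from -0.21 to 0.58 between the last pair.

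In a fit with group and a term for the libraries with Xist reads, 0.4% of 20978 genes (84 genes) passed for that term. Dusp1 and Dusp6 were among them, at 1.18 ± 0.14 (adjusted p = 0.00372) and 0.88 ± 0.14 (adjusted p = 0.0196) on the log2 scale, higher in the libraries with Xist reads. Dusp5 stood at 0.81 ± 0.17 (adjusted p = 0.0749), Dusp4 at 0.35 ± 0.17 (adjusted p = 0.406) and Dusp8 at 0.04 ± 0.07 (adjusted p = 0.865). The contrast was made within the undisturbed groups, since no SD library held Xist reads, and each genotype gave it 1 library against 2. Other tissue measures moved with it. The 5 oligodendrocyte markers summed to 124730 and 114880 in the controls without Xist reads and to 48839 to 105330 in those with them, and all 5 were lower at an unadjusted p under 0.05 while 0 of 5 passed after adjustment. The 7 striatal markers were all lower too, and 0 of 7 passed. With SD in wild-type mice 3 of 5 oligodendrocyte and 3 of 7 striatal markers fell, beside 12.2% of all genes. In AcPb-/- mice 0 of either list fell, beside 13.3%. The part of these tissue measures in the Dusp1, Dusp5 and Dusp6 values was not tested.

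Genotype differences were not called for any member. In undisturbed mice 0 of 9 members passed by limma or edgeR and 0 of the 8 to which DESeq2 gave an adjusted p, where 0.0197% of 20273 genes (4 genes) passed by limma, and 1 member had an unadjusted limma p under 0.05, Dusp8 at 0.17 ± 0.06 (unadjusted p = 0.0160, adjusted p = 0.477). After SD 0 of 9 passed by the same tools, where 0.0145% of 20621 genes (3 genes) passed, and 0 had an unadjusted p under 0.05. The interval of the difference after SD was -0.58 to 0.10 for Dusp4 and -0.07 to 0.23 for Dusp8, on the log2 scale, AcPb-/- minus wild-type. The SD effect itself differed between genotypes for 0 of 9 members by limma, edgeR or DESeq2, where 0% of 20978 genes (0 genes) passed by limma. Dusp2 was the member with an unadjusted p under 0.05, at -0.74 ± 0.32 (unadjusted p = 0.0401, adjusted p = 0.986). The call of Dusp7 in wild-type and of Dusp2 in AcPb-/- mice alone is thus not shown to be a difference between genotypes.

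Of the 20 kinases of the MAP kinase cascade, 3 rose and 6 fell with SD in wild-type mice, and 4 rose and 5 fell in AcPb-/- mice, beside 13.2% higher and 12.2% lower over all genes in wild-type and 14.1% and 13.3% in AcPb-/- mice. Map2k1 and Map2k2, the kinases that activate ERK, fell in both, Map2k1 by 0.52 on the log2 scale in each genotype (adjusted p = 0.00232 and 0.00154). Map2k2 fell by 0.69 (adjusted p = 0.00163) and by 0.87 (adjusted p = 0.000610). The p38 kinases Mapk11 and Mapk12 rose in both genotypes, Mapk11 by 0.77 and 0.68 on the log2 scale (adjusted p = 0.000613 and 0.000672). The other p38 kinases listed, Mapk13 and Mapk14, were called in neither genotype and had lower means after SD. Mapk14 went from 6173.5 to 5992.6 normalized counts in wild-type and from 6275.1 to 5757.1 in AcPb-/- mice. Mapk13 was scarce, at 25.5 and 16.4 in wild-type and 30.5 and 24.8 in AcPb-/- mice. Mapk3, which encodes ERK1, had log2 fold changes of -0.16 (adjusted p = 0.408) and -0.18 (adjusted p = 0.171) and one of -0.38 (adjusted p = 0.0343) in the 8 libraries without Xist reads.

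Among 16 tested of 17 other dual-specificity phosphatases, 3 rose and 2 fell in wild-type mice and 1 rose and 3 fell in AcPb-/- mice, beside shares over all genes of 13.2% and 12.2%, then 14.1% and 13.3%. Dusp9, the remaining cytoplasmic ERK phosphatase, was scarce, at 45.8 to 57.7 normalized counts in CTL-WT and 60.6 to 66.7 in SD-WT, with a log2 fold change of 0.27 (adjusted p = 0.313) in wild-type and 0.41 (adjusted p = 0.175) in AcPb-/- mice. Of 3 tyrosine phosphatases of MAP kinases, 1 rose and 1 fell in wild-type mice, and 1 rose and 0 fell in AcPb-/- mice, beside the same shares. Ptpn5, which encodes the striatal-enriched tyrosine phosphatase that also acts on ERK and p38, was upregulated by 0.44 (adjusted p = 0.00171) and 0.33 (adjusted p = 0.00481). Ptprr was the one called lower in wild-type mice, with means of 910.87 in CTL-WT and 668.24 in SD-WT. Its means were 822.33 in CTL-AcPbKO and 629.84 in SD-AcPbKO.

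Proteins that restrain RAS and ERK signaling upstream of the phosphatases were counted next. Of 10 such inhibitors, the same 6 rose (Spry3, Spry4, Spred1, Spred2, Spred3 and Errfi1) and Pebp1 fell in wild-type and in AcPb-/- mice. Over all genes 13.2% and 14.1% rose. Of all genes 12.2% fell in wild-type and 13.3% in AcPb-/- mice. The inhibitor list's median log2 fold change was 0.35 in wild-type and 0.33 in AcPb-/- mice, beside -0.0039 and 0.014 over all genes. In the 8 libraries without Xist reads, with 1 control per genotype, it was 0.42, beside 0.0082. Spred3, a Sprouty-related inhibitor of RAS signaling, was upregulated by 1.09 ± 0.06 (adjusted p = 3.37e-05) in wild-type mice and passed in AcPb-/- mice too (adjusted p = 0.000851). Spry4 was upregulated by 0.57 (adjusted p = 0.00367) and 0.51 (adjusted p = 0.0371), and Spry2 had log2 fold changes of 0.15 (adjusted p = 0.387) and -0.05 (adjusted p = 0.729). Of 14 transcripts known to respond to ERK, 5 rose and 0 fell in wild-type mice, and 3 rose and 1 (Ier2) fell in AcPb-/- mice. The same all-gene shares stand beside these, 13.2% and 14.1% higher and 12.2% and 13.3% lower. Etv5, a transcription factor gene induced by ERK, was upregulated by 0.64 (adjusted p = 0.000715) and 0.68 (adjusted p = 0.00297).

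**Figure D4:**
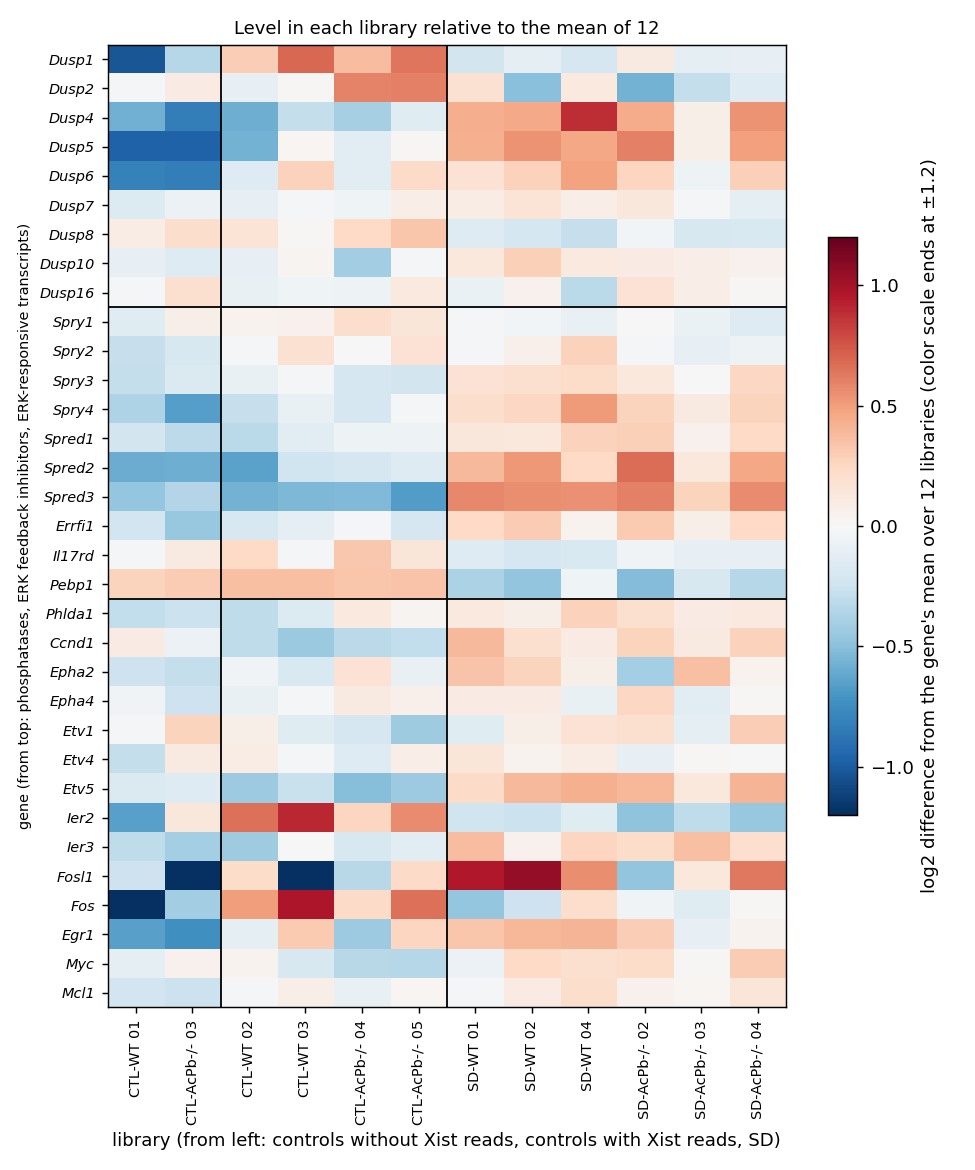
Level of the 9 phosphatases, 10 ERK feedback inhibitors and 14 ERK-responsive transcripts (rows) in each of 12 libraries (columns), as the log2 difference from the gene's own mean. From left, the columns are the 2 controls without Xist reads, the 4 controls with them and the 6 SD libraries. Dusp1 and Fos were high in the 4 controls with Xist reads, and Dusp4, Spred2 and Spred3 were above their mean in all 6 SD libraries.

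Fos, the immediate early gene, had the split of Dusp1. It was measured at 678 and 1231.5 normalized counts in the controls without Xist reads, at 1921 to 3215 in those with them, and at 1188 to 1905 after SD. Its term for the libraries with Xist reads was 1.43 ± 0.24 on the log2 scale (adjusted p = 0.0248), the 1 gene of the 14 ERK-responsive transcripts to pass for it. Of 10 glucocorticoid-induced genes, a class to which Dusp1 is also counted, 6 rose in wild-type and 7 in AcPb-/- mice with all libraries. Over all genes 13.2% and 14.1% rose. In the 8 libraries, with 1 control per genotype, this list's median log2 fold change was 0.87, beside 0.0082 over all genes. Per1 and Nfkbia passed for the Xist term, Per1 at 0.98 ± 0.16 (adjusted p = 0.0209). Of 14 substrates and transcription factors of ERK, 6 rose and 3 fell in wild-type and 5 rose and 3 fell in AcPb-/- mice. Of all genes 13.2% rose and 12.2% fell in wild-type mice, and 14.1% rose and 13.3% fell in AcPb-/- mice.

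The genes whose level ran most like a member over the 12 libraries were taken from 12554 genes with a mean of at least 100 normalized counts, by Pearson's r on the log2 scale. For Dusp1 these were Fos (0.945), Kdm5c (0.919) and Apold1 (0.905), and Kdm5c is an X-linked gene that escapes inactivation. For Dusp4 they were Spry4 (0.977), Susd6 (0.976) and Slc9a5 (0.973). For Dusp5 they were Fam212b (0.9747), Midn (0.971) and Cdyl (0.963), and for Dusp6 Tiparp (0.967), Ppp1r15b (0.961) and Trib1 (0.948). Dusp8 ran most like Phyhip (0.977), Fbxo41 (0.964) and Wdr91 (0.963), and Dusp10 like Abracl (0.942), Ext1 (0.930) and Eya3 (0.930). The closest genes to Dusp7 were Ubl7 (0.911), Tcf7 (0.892) and Phf21b (0.860). Within the family Dusp5 ran with Dusp6 (0.920) and Dusp4 (0.916), Dusp4 ran against Dusp8 (-0.811), and Dusp1 was closest to Dusp6 (0.547). These are descriptions over libraries that share the SD grouping and depth. The r values follow the differences between groups and those within them, including the split of the controls by Xist reads.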

How the data were processed

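Cortical RNA was sequenced from libraries made with the TruSeq stranded mRNA kit, which marks strand. Per the labels, reads were aligned with HISAT2 2.2.1 to mm10 and counted with featureCounts, while the study's methods name HTSeq; strand setting and annotation are not given in the sources used here. The authors compared pairs of groups with DESeq2 (1.31.16 in the submitters' processing notes). The deposited per-library values are a signal, read counts divided by the size factors of each table, in 5 tables. Their columns of means, log2 fold changes, standard errors, statistics and p-values hold the authors' own comparisons and were not used. The table of SD-AcPbKO against CTL-WT served only the check of recovered reads.

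Size factors were undone, and 100.0% of 732630 values lay within 0.01 of a whole read. The 12 libraries were scaled together by the median of ratios for values printed per library. Each 2-group comparison was fitted on its own table with limma 3.58.1 (R 4.3.3, variance trend) on log2(normalized count + 1), so fold changes of low genes are understated. Any gene with 1 read or more in the compared libraries was tested, with Benjamini-Hochberg adjustment over all of them and a threshold of 0.05. Interaction and Xist-term fits and the average over 12 libraries used the jointly scaled values. The joint fits of the 8 libraries without Xist reads used size factors computed over those 8 alone. DESeq2 1.42.0 and edgeR 4.0.16 were run on whole reads as alternatives. They called 5378 and 5368 genes in wild-type mice and 5820 and 5682 in AcPb-/- mice, where limma called 5186 and 5633. A library counted as having Xist reads above 1000 reads. Nothing says how animals and batches relate, so p-values measure the spread between these libraries. Replicates differed by more than sampling noise (chi-square per gene 6.61 to 34.2), and none was counted as a duplicate.

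Exon lengths came from GENCODE M21 (GRCm38), in which 95.8% of listed genes were matched. Promoters came from RefSeq (GRCm38.p6), which held 8 of the 9 members. Named beyond the members were the 3 genes most alike over libraries for each member with a mean of at least 100 (those of Dusp16 are not reported here), list genes past the threshold in both SD comparisons, and Mapk3, Dusp9, Ptpn5, Spry2, Spry4 and Etv5. Fos, Il1rap, Per1, Nfkbia, Ier2, Mapk13, Mapk14 and Ptprr were named after their values were seen. Members and lists were chosen with earlier results of these data known. Glucocorticoid-induced genes and ERK feedback inhibitors both hold Errfi1. On simulated data with 200 genes changed by a log2 value of 1, limma recovered 196 in the wild-type and 190 in the AcPb-/- SD comparison, 88 for the interaction and 123 for the average over 8 libraries. The simulated counts had the same dispersion for every gene, and the changed genes all had a mean of at least 100 reads. Simulated controls varied as the simulated SD libraries did. The recovery therefore does not describe genes as variable in the controls as Dusp1 and Dusp6, or as scarce as Dusp2. Alternatives were other scaling, filters, pseudocounts, tools and thresholds, a replicate block, and leaving out each library or those with Xist reads.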

Additional observations from a re-analysis of the deposited data

How the results depend on the processing

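The count of 4 called members in wild-type mice became 2 without a filter on low values, 1 without the variance trend, 0 without the libraries with Xist reads and 0 with the replicate block, and leaving out 1 library gave 3 to 5. The count of 3 in AcPb-/- mice became 1 without a filter, 1 at an adjusted p under 0.01, 5 with a term for libraries with Xist reads, 0 without those libraries and 0 with the replicate block, and leaving out 1 library gave 1 to 4, with 1 when SD-AcPbKO 02 or SD-AcPbKO 04 was left out. The replicate block and the 2-group fits without libraries with Xist reads called 0 of all genes as well, so they are too small to judge a call. With a term for libraries with Xist reads the wild-type count of called members became 6, with 5 upregulated and 1 downregulated. Called genes numbered 5186 in wild-type mice against 2937 without a filter and 2536 without the variance trend, and leaving out 1 library gave 2699 to 6222. In AcPb-/- mice they numbered 5633 against 3608 without the variance trend, with 3393 to 5412 on leaving out 1 library. DESeq2 called 104 and 99 genes between genotypes (undisturbed, after SD) where limma called 4 and 3. Counts of called members stayed at 0 for both genotype comparisons and the interaction in every alternative.

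Of 737 single-gene alternatives, 625 kept direction and call, 50 lost the call, 24 gained it and 38 turned direction. The wild-type value of Dusp1 turned to 0.63 with the Xist term, 0.86 without those libraries in either fit (0.857 and 0.858), 0.21 with the replicate block and 0.19 without CTL-WT 03 (lowest -0.67 without CTL-WT 01), and its AcPb-/- value to 0.53 and 0.31 (0.31 in the joint fit). Averaged over genotypes it turned to 0.58 in both Xist alternatives. Dusp2 in wild-type mice turned to 0.0047 (edgeR), 0.12 (Xist term) and 0.18 (without SD-WT 02, lowest -0.16 without SD-WT 01). Dusp16 turned to 0.049 (block) and 0.045 (without SD-WT 04, lowest -0.15 without SD-WT 02) in wild-type mice, to -0.067, -0.10 and -0.10 (Xist alternatives), -0.018 (block), -0.063 and -0.034 (without CTL-AcPbKO 04 and SD-AcPbKO 02, highest 0.066) in AcPb-/- mice, and to 0.026 and 0.0023 averaged (without SD-WT 04 and CTL-AcPbKO 03, lowest -0.069). Dusp7 in AcPb-/- mice turned to -0.0081 (block), -0.013, -0.0062 and -0.055 (without CTL-AcPbKO 03, CTL-AcPbKO 04 and SD-AcPbKO 02, highest 0.072). The genotype difference of the SD effect turned for Dusp1 to 0.013 (DESeq2), 0.019 (edgeR), 0.11 (block), 0.41 and 0.11 (without CTL-WT 01 and CTL-AcPbKO 05, lowest -0.45), for Dusp4 to 0.0083 (without Xist libraries) and 0.067 (block), for Dusp5 to 0.054 (block) and for Dusp6 to 0.23 (block), 0.15 and 0.10 (without CTL-WT 01 and CTL-AcPbKO 05, lowest -0.43). The cause was not tested. In wild-type mice the call was lost in 4 of 20 alternatives for Dusp5 and 10 of 20 for Dusp7. In AcPb-/- mice it was lost in 11 of 20 for Dusp2. Dusp5 in AcPb-/- mice passed in 8 of 20 alternatives and Dusp6 in 3 of 20 in each genotype.

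Deviations of same-numbered libraries correlated at -0.612 to 0.357, and only 2 numbers were shared by each SD comparison, so the libraries were not treated as paired. No paired analysis was possible for the undisturbed genotype comparison because it shared 1 number. Leaving libraries with Xist reads out of it left 1 library per group and no test. The averaged fits and the 8-library fits were added after the data were seen. Dusp2, at 33 to 84 reads, is the member that depth limits most.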
